A study of Mus musculus with 57 samples.

Results

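The 10 genes described here store, take up, move or export iron, break down haem, or sense iron in the cell. They were taken by name from a table of 12885 genes, and all 10 were in it: the ferritin chains Fth1 and Ftl1, the ferritin receptor Ncoa4, transferrin (Trf) and its receptor Tfrc, the iron transporters Slc11a2, Slc11a1 and Slc40a1, haem oxygenase 1 (Hmox1) and the iron regulatory protein Ireb2. Their levels were read in 57 single cells from the bones of 8 C57BL/6 mice. The mice had been injected into the heart with RM1536, an RM1 mouse prostate cancer line carrying the fluorescent protein eCFP and the luciferase luc2, after the cells had been stained with the membrane dye PKH26. The dye is thinned out at each division. Cells that had kept it were sorted as dormant (28 cells, 6 mice, endpoint on days 14 to 26) and cells without it as proliferating (29 cells, 6 mice, days 13 to 18), and 4 mice gave both states. The series text speaks of 32 proliferating cells, of which 29 were analysed here. All cells came from mice that carried the same line, so the only non-tumour cells for comparison are those that entered the sort, and no cell sorted as bone marrow was analysed here.

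Iron in blood travels on transferrin, which binds the transferrin receptor and is taken into endosomes, where the transporter encoded by Slc11a2 (DMT1) passes the iron to the cytosol. Surplus iron is stored inside ferritin, a shell of heavy (Fth1) and light (Ftl1) chains, and leaves the cell through ferroportin (Slc40a1). Bone marrow macrophages are known for recycling the iron of old red cells: they break down haem with haem oxygenase 1, move iron out of the phagosome with NRAMP1 (Slc11a1), store it in ferritin and export it through ferroportin. When iron is scarce, the iron regulatory proteins, one of them encoded by Ireb2, bind short hairpins in messenger RNA called iron-responsive elements. Binding near the start of the message blocks translation, as in ferritin, and binding in the 3′ UTR protects the message from decay, as in Tfrc, so ferritin protein can change without any change of the ferritin mRNA measured here.

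The hairpins are shown because they are the sequences through which iron acts on some of these messages. The coding transcripts of GENCODE M21 (build GRCm38) were searched for a bulged C, a stem of 5 base pairs (Watson-Crick or G-T) and the loop CAGTGN, with N any base other than G, and at least 4 of the 5 pairs were required. Sites with all 5 pairs were found in Fth1, Ftl1, Slc40a1 and Tfrc, which is 4 of 10 members, against 0.892% of 21870 protein-coding genes. Such elements were already known in members of this list, ferritin and Tfrc among them, so these shares are not a test of the members. Each line gives 30 bases, 5′ to 3′ on the strand of the gene, with the loop in capitals.

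Fth1, 5′ UTR, chr19:9982732-9982761, plus strand: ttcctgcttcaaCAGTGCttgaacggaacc

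Ftl1, 5′ UTR, chr7:45459778-45459807, minus strand: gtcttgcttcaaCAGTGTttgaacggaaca

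Slc40a1, 5′ UTR, chr1:45925464-45925493, minus strand: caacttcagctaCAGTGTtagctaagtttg

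Tfrc, 3′ UTR, chr16:32631219-32631248, plus strand: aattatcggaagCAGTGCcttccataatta

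Tfrc, 3′ UTR, chr16:32631598-32631627, plus strand: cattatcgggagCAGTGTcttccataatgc

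Tfrc, 3′ UTR, chr16:32631663-32631692, plus strand: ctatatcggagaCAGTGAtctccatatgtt

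Tfrc, 3′ UTR, chr16:32631710-32631739, plus strand: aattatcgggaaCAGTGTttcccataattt

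Slc11a2, 3′ UTR, chr15:100395152-100395181, minus strand: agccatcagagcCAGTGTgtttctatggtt

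The Fth1 and Ftl1 sites share the same stem around the loop, and Tfrc carries 4 sites in its 3′ UTR. The Slc11a2 site had 4 of 5 pairs and lay in 1 of its 6 coding transcripts. The looser rule of 4 pairs was met by 7.40% of protein-coding genes. In that count 4 of 10 members met the looser rule, the same number as with 5 pairs. The Slc11a2 site was thus not in it, and 7.40% is not a share to set beside that site. A match to this pattern is a description of the letters, and the values below do not tell the transcripts of a gene apart.

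Values are the authors' normalised reads, and whole reads could be recovered from them, 943496 to 5273065 per cell, with 2397 to 10507 genes above 0. The cells were placed in 3 classes by their state and by eCFP. Of the 57 cells, 6 had eCFP under 100 normalised reads and are called low-label cells: 1 from mouse 244, 2 from mouse 360, 2 from mouse 369 and 1 from mouse 1184, all sorted as dormant. The other 51 cells are called labelled, 22 of them dormant (4 mice) and 29 proliferating (6 mice), with eCFP between 327 and 5256. The low-label cells went against their label as RM1 tumour cells. Their eCFP was 0 to 87.6, which is low by the rule that made the class. Their Krt8, an epithelial keratin, was 0 to 9.40, against 87.8 to 24783 in labelled cells. Lyz2, a lysozyme gene of monocytes, macrophages and neutrophils, was 52145 to 188632 in low-label cells, and 7 to 18 of 18 pan-leukocyte genes were above 0. They were not 1 kind of cell: S100a8, a neutrophil gene, was 180886 in the cell of mouse 244 and 378089 in 1 cell of mouse 369, and under 12 in the other 4. The haemoglobin gene Hbb-bs was 5885 in the cell of mouse 244 and 0 in the other 5, with the 6 of 10 erythroid genes that were in the table summing to at most 14806 normalised reads in low-label, 7.06 in labelled dormant and 70644 in proliferating cells, and a median of 0 in each class. Their part in the results was not tested. Spic, the defining factor of iron-recycling macrophages, was above 0 in 2 of the 6. It was above 0 in 3 of 22 labelled dormant and 0 of 29 proliferating cells. Summed over 3 of 5 iron-recycling genes, medians were 0.665 normalised reads in low-label, 59.4 in labelled dormant and 69.5 in proliferating cells. The class is therefore called by its label and given no cell type name. The summed pan-leukocyte genes were 17398 to 67113 normalised reads in low-label cells, 935 to 11915 in labelled dormant cells and 764 to 10059 in proliferating cells. Cells with at least 5 of the 18 genes above 0 are called leukocyte-rich. These were all 6 low-label cells, 10 labelled dormant cells and 9 proliferating cells.

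The ferritin genes were the highest of the 10 in every class. Fth1 (ENSMUSG00000024661, chr19:9980598-9985098, plus strand) encodes the heavy chain, which oxidises iron for storage. In the 6 low-label cells its normalised reads were 50488 in mouse 244, 231136 and 276467 in mouse 360, 273610 and 85140 in mouse 369, and 246264 in mouse 1184. The lowest, median and highest values were 14343, 24078 and 124646 in the 22 labelled dormant cells and 6010, 28186 and 107023 in the 29 proliferating cells. Thus 4 of the 6 low-label cells lay above every labelled cell, and 6 of 51 labelled cells lay above the lowest low-label cell.

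Ftl1 (ENSMUSG00000050708, chr7:45457944-45459884, minus strand) encodes the light chain, which helps the iron core to form. In low-label cells its normalised reads were 71908 in mouse 244, 181741 and 141371 in mouse 360, 38340 and 66234 in mouse 369, and 314535 in mouse 1184. They were 17527, 27398 and 136180 (lowest, median, highest) in labelled dormant cells and 7619, 20554 and 72203 in proliferating cells. Here 3 low-label cells lay above every labelled cell, and 12 of 51 labelled cells lay above the lowest low-label cell. The genome holds processed copies of both ferritin genes, and reads may be split between them: the row of Ftl1-ps1, a copy of Ftl1, was 0.969% to 2.96% of Ftl1.

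**Figure D1:**
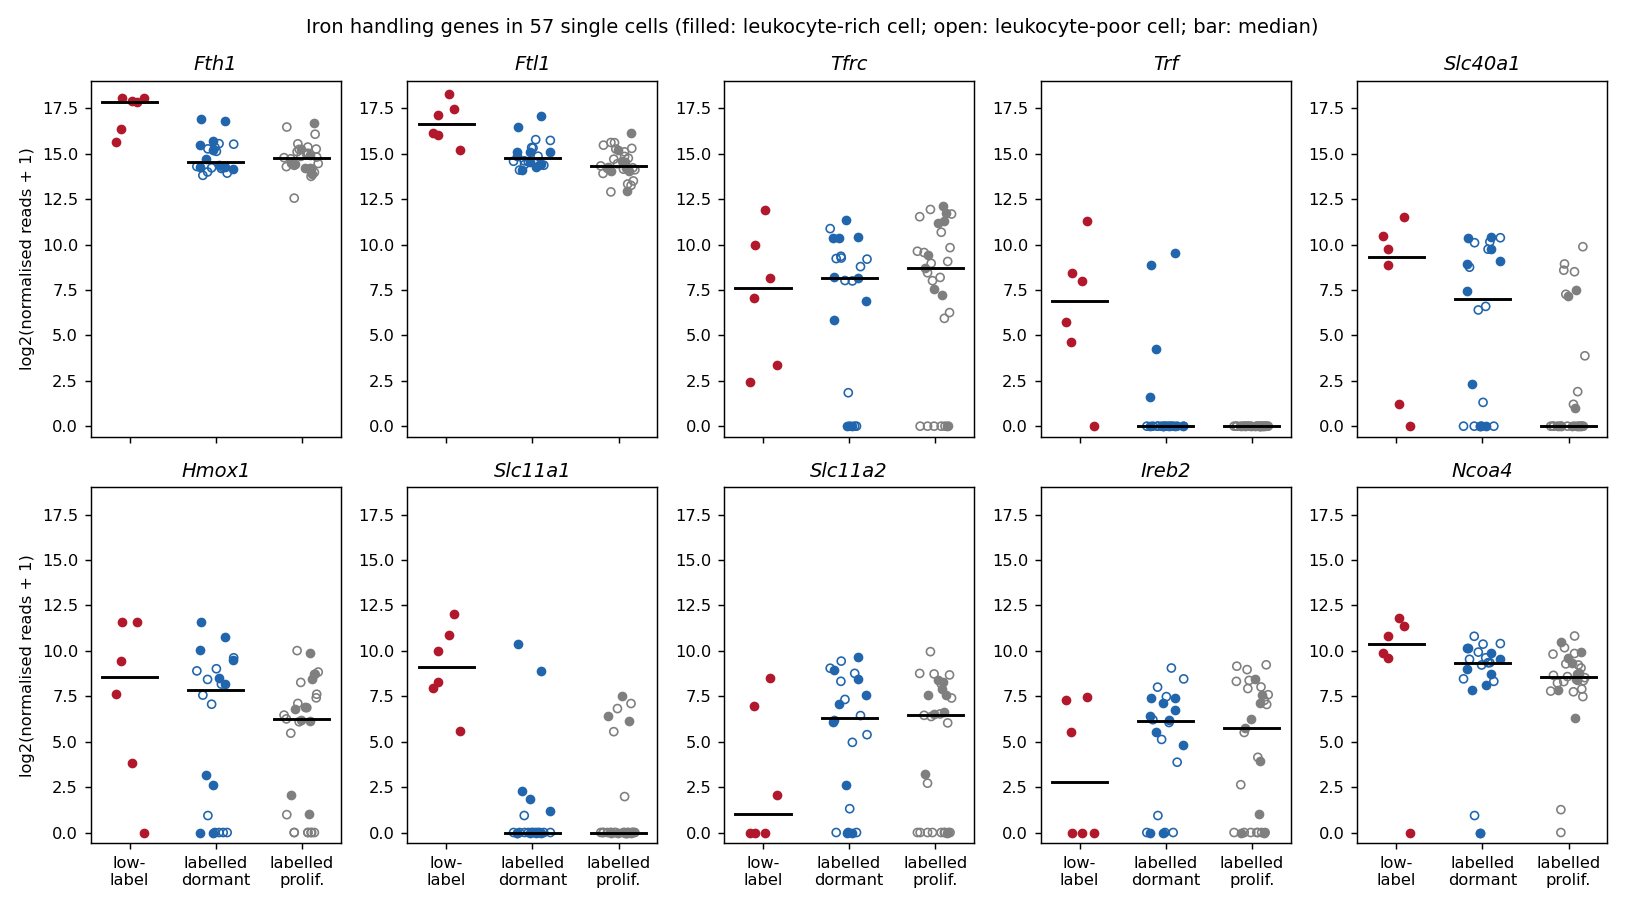
Each point is 1 of the 57 cells and the vertical axis is log2(normalised reads + 1), by gene and class. Filled points are leukocyte-rich cells, open points leukocyte-poor cells, and the bar is the median. Fth1 and Ftl1 sit at the top of the low-label class, Trf is at 0 in all 29 proliferating cells, and Slc40a1 is above 0 in 15 of 22 labelled dormant and 11 of 29 proliferating cells.

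Together the 2 chains took up 8.77% ± 5.02 of recovered reads in low-label cells (SD over the means of 4 mice, 4.01% to 15.5%). The share was 2.41% ± 0.973 in labelled dormant cells (4 mice, 1.70% to 3.77%) and 1.85% ± 0.729 in proliferating cells (6 mice, 1.04% to 2.99%). The low-label means did not overlap with either labelled class, and the dormant and proliferating labelled means did. Low-label cells also had fewer genes above 0, with a median of 5225 against 7662 in labelled cells. Whether the number of genes has a part in the share of ferritin reads was not tested.

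Cells of 1 mouse are not independent, so the comparisons use the mean of log2(normalised reads + 1) over the cells of a mouse and group. A difference of 1 on this scale is a doubling, and a cell at 0 counts as 0, so for genes that many cells lack the difference also reflects how many cells had any read. P-values come from limma over all genes with Benjamini-Hochberg adjustment at 0.05, and they measure the spread between these mice. The comparison of low-label with labelled cells asks how tumour cells handle iron beside marrow cells caught in the same sort. Of 11842 genes tested, 12.6% were called, 2.2% higher and 10.4% lower in low-label cells, and the median difference over all genes was −1.48. Every low-label cell was leukocyte-rich and sorted as dormant, so a lack of label and leukocyte genes cannot be told apart here. Of the 10 members 4 rose in low-label cells and none fell: Fth1, Ftl1, Trf and Slc11a1. Trf was above 0 in 5 of 6 low-label and 4 of 51 labelled cells. It reached the 6 cells needed for a test only with the low-label cells, so its call is not independent support. The median difference of the 10 members was 1.77, and 8 of 10 were positive. When cells were rescaled with median-of-ratios factors, the median over all genes went from −1.48 to −1.12 and the calls from 261 higher and 1235 lower to 298 higher and 648 lower, and the same 4 members were called.

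Fth1 averaged 17.18 ± 1.09 over the low-label means of 4 mice (15.62 to 17.95) and 14.79 ± 0.42 over the labelled means of 7 mice (14.32 to 15.43). The difference was 2.38 (SE 0.48, limma adjusted p = 0.00347), and these low-label and labelled means did not overlap. With the states kept apart, the proliferating mean of mouse 1185 was 15.84, above the low-label mean of 15.62 in mouse 244. How many of all genes had no overlap was not counted. Ftl1 averaged 16.83 ± 1.18 in low-label cells (15.62 to 18.26) and 14.62 ± 0.69 in labelled cells (13.50 to 15.54), a difference of 2.21 (SE 0.53, limma adjusted p = 0.0108), again with no overlap. With labelled dormant cells alone as the labelled group, which removes the difference in sorted state, both ferritin genes were still called (2.21, limma adjusted p = 0.0273, and 1.83, limma adjusted p = 0.0412), where 0.71% of genes were called higher. Against labelled proliferating cells alone the differences were 2.36 (limma adjusted p = 0.00587) and 2.32 (limma adjusted p = 0.0109), where 1.62% of genes were called higher. With leukocyte-rich cells left out of the labelled group they were 2.52 (limma adjusted p = 0.000157) and 2.27 (limma adjusted p = 0.00234), where 1.2% were called higher. In the 3 mice with cells of both classes, fitted with the mouse as a replicate block, they were 2.96 (limma adjusted p = 0.004) and 2.41 (limma adjusted p = 0.00706), where 1.25% were called higher. A threshold of 1000 in place of 100 for eCFP puts 3 more mice in the low group. It also moves labelled cells of both states, with eCFP from 327 up, into that group. The fit then no longer sets low-label against labelled cells as defined above. Both calls ended under it (1.50, limma adjusted p = 0.138, and 0.95, limma adjusted p = 0.271). A threshold of 10 ended the call of Ftl1 (2.09, limma adjusted p = 0.0985).

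**Figure D2:**
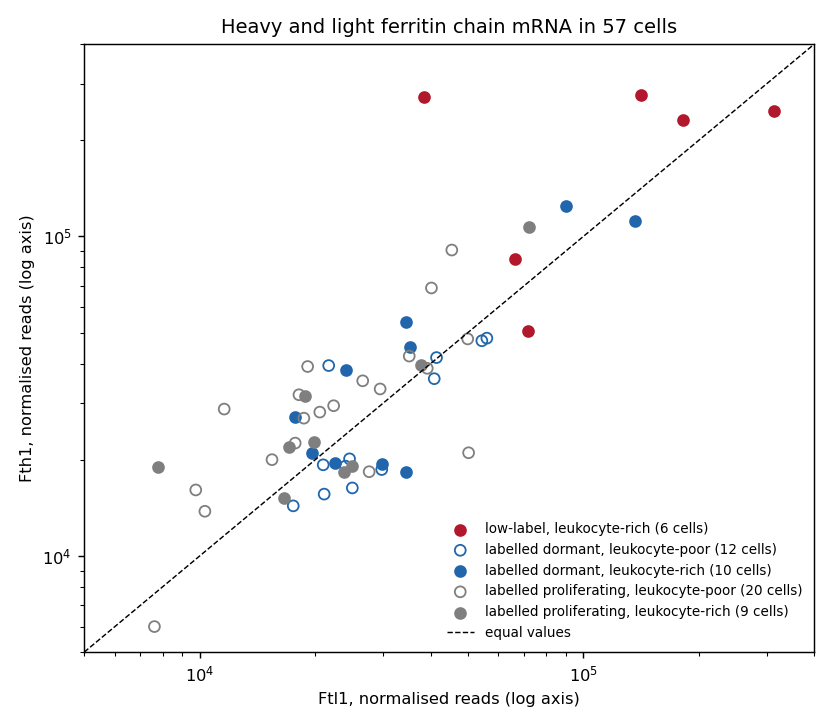
Ftl1 (horizontal) against Fth1 (vertical) in 57 cells, in normalised reads on log axes, coloured by class, with a dashed line at equal values. The low-label cells hold Fth1 values of 50488 to 276467, and 1 of them, from mouse 369, has far more Fth1 (273610) than Ftl1 (38340).

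The balance of the chains was compared between the states because it does not depend on how a cell was scaled. The mean per mouse of log2(Fth1 + 1) minus log2(Ftl1 + 1) was 0.078 ± 0.473 in dormant cells (n = 6 mice) and 0.315 ± 0.597 in proliferating cells (n = 6 mice). The difference of −0.24 was within the spread between mice (two-sided exact permutation test, p = 0.625, the smallest possible p being 0.0208). It was higher in dormant cells in 2 of the 4 mice with both states. Without the low-label cells the difference was −0.34 (two-sided exact permutation test, p = 0.312), and the value was higher in dormant cells in 0 of 3 mice. It was −0.49 without leukocyte-rich cells (two-sided exact permutation test, p = 0.406, higher in dormant cells in 0 of 3 mice) and −0.49 in cells with at least 4000 genes (two-sided exact permutation test, p = 0.125, higher in 1 of 4). Within single cells the log2 ratio spanned −0.51 to 2.84 in the low-label class. The largest value was that of the cell of mouse 369 with S100a8 at 378089, which had 2672 genes above 0 and no read of Trf, Slc40a1, Hmox1, Ireb2 or Ncoa4.

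Across the 57 cells Fth1 and Ftl1 ran together, with a Spearman correlation of 0.74, and of 0.66 in the 32 leukocyte-poor cells, all of them labelled. The genes most like Fth1 over all cells were Ftl1-ps1 (0.79), Ftl1 (0.74) and Gm6977 (0.66). Those most like Ftl1 were Ftl1-ps1 (0.91), the cathepsin inhibitor gene Cstb (0.82) and Gabarap (0.75), which encodes an autophagosome protein. These correlations are descriptions over cells that share mice, depth and the steps of 1 protocol.

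Ncoa4 (ENSMUSG00000056234, chr14:32159865-32179855, plus strand) encodes the receptor that carries ferritin to the lysosome, where its iron is freed. Reads were found in 5 of 6 low-label cells, 20 of 22 labelled dormant and 28 of 29 proliferating cells. Medians were 1371 normalised reads in low-label cells, 651 in labelled dormant and 382 in proliferating cells, and 2 low-label cells lay above every labelled cell (highest 3616 against 1805). The mouse means were 9.40 ± 3.17 in low-label cells (n = 4) and 8.07 ± 1.36 in labelled cells (n = 7) and overlapped. The difference of 1.33 (SE 1.29, limma adjusted p = 0.452) was not called. DESeq2 on the recovered reads called it (2.45, DESeq2 adjusted p = 0.00616), where DESeq2 called 4.56% of genes higher. Its closest genes were Gm6768 (Spearman 0.68 over 57 cells), the lysosomal proton pump subunit gene Atp6v1a (0.68) and Hmox2 (0.64).

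Among the uptake genes, Tfrc (ENSMUSG00000022797, chr16:32608920-32632794, plus strand), the transferrin receptor, was spread widely within each class. It was above 0 in all 6 low-label cells (4.30, 209 and 3777 as lowest, median and highest), in 17 of 22 labelled dormant cells (median 287, highest 2599) and in 22 of 29 proliferating cells (median 414, highest 4392). The low-label mean of 7.15 ± 4.18 and the labelled mean of 6.99 ± 2.33 differed by 0.16 (SE 1.66, limma adjusted p = 0.955), less than the spread between mice. The sign of this difference turned under 5 other settings (to −1.63 at most) and when any 1 of 4 mice was left out. Tfrc and Ftl1 ran in opposite directions over cells, weakly, with a Spearman correlation of −0.37 over 57 cells and −0.41 over the 32 leukocyte-poor cells. Cells of 1 mouse are not independent, and differences between mice enter these values. Whether the genes run in opposite directions within a mouse was not tested. The genes most like Tfrc were Canx (0.69), Adss (0.65) and Nupl1 (0.64).

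Trf (ENSMUSG00000032554, chr9:103204001-103230444, minus strand) encodes transferrin, which the liver secretes into blood and which macrophages also make. In low-label cells it was 51.6 in mouse 244, 2502 and 348 in mouse 360, 0 and 24.2 in mouse 369 and 258 in mouse 1184. In labelled dormant cells it was above 0 in 4 of 22 cells (18.2%, exact Clopper-Pearson 95% interval 5.19% to 40.3%), at 747 and 468 in 2 cells of mouse 1184 and at 17.7 and 2.02 in 2 cells of mouse 369. It was above 0 in 0 of 29 proliferating cells, which by 3 counts of the total allows a share of up to 10.3%. Intervals and limits of this kind treat cells as independent and cover counting error only. All 9 cells with a Trf read were leukocyte-rich, and none of the 32 leukocyte-poor cells had one, which allows a share of up to 9.38%. The low-label mean was 6.48 ± 3.25 (n = 4) and the labelled mean 0.71 ± 1.72 (n = 7). The difference was 5.78 (SE 1.40, limma adjusted p = 0.0115), with 1 labelled mouse, 1184 at 4.60, inside the low-label range of 2.33 to 9.87. With reads in 4 of 51 labelled cells, Trf met the filter of 6 cells only through the low-label cells. The call was lost against labelled dormant cells alone (4.97, limma adjusted p = 0.0851), without mouse 360 (4.53, limma adjusted p = 0.0504), at an eCFP threshold of 1000 (3.50, limma adjusted p = 0.22) and with either count tool (edgeR adjusted p = 0.255, DESeq2 adjusted p = 0.246), where edgeR called 2.0% of genes higher.

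Slc11a2 (ENSMUSG00000023030, chr15:100387898-100425072, minus strand), which moves iron out of endosomes, went the other way from the ferritins in low-label cells, without a call. It was above 0 in 3 of 6 low-label cells (highest 367), 17 of 22 labelled dormant cells (median 78.8, highest 816) and 19 of 29 proliferating cells (median 86.6, highest 992). Mouse means were 2.19 ± 2.54 against 4.54 ± 2.71, a difference of −2.35 (SE 1.55, limma adjusted p = 0.268). The median over all genes was also negative, at −1.48, and lay within 1 standard error of this value. The genes closest to it were Abcb6 and Plod1 (0.70 each) and Ano6 (0.69).

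Slc11a1 (ENSMUSG00000026177, chr1:74375195-74386062, plus strand), the phagosome transporter of macrophages and neutrophils, had the largest difference of the 10. It was above 0 in all 6 low-label cells, at 251 in mouse 244, 4132 and 1015 in mouse 360, 47.0 and 305 in mouse 369 and 1886 in mouse 1184. Among labelled cells, 6 of 22 dormant and 7 of 29 proliferating cells had reads. Among labelled cells the 2 highest were dormant cells of mouse 1184 (477 and 1313), and no proliferating cell was above 179. The low-label mean was 9.20 ± 2.06 (n = 4, 6.92 to 11) and the labelled mean 1.90 ± 2.78 (n = 7, 0 to 6.82), with no overlap, a difference of 7.30 (SE 1.55, limma adjusted p = 0.0049). It was called against labelled dormant cells alone (7.76, limma adjusted p = 0.0278) and against labelled proliferating cells alone (7.79, limma adjusted p = 0.00513). The call was lost with the mouse as a replicate block (5.27, limma adjusted p = 0.0658), with edgeR (4.48, edgeR adjusted p = 0.0798) and at an eCFP threshold of 1000 (3.00, limma adjusted p = 0.359). Its closest genes over 57 cells were Cd93 (0.70), Slc15a3 (0.69) and the cytokine gene Tnf (0.66), each above 0 in 15 cells or fewer. Trf and Slc11a1 were above 0 together in 8 cells, and 1 further cell had Trf alone.

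The 2 labelled dormant cells of mouse 1184 with Trf and Slc11a1 had 11 and 18 of the 18 pan-leukocyte genes above 0, and eCFP of 418 and 736. They also had the highest Fth1 of any labelled cell, 112061 and 124646, the highest Ftl1, 136180 and 90099, and the highest Hmox1 among labelled cells, 1768 and 3088. Their eCFP lies well above the low-label class and their Luc2, 1850 and 2494, is also above its highest value of 230. Whether each well held 1 cell or more was not tested.

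Slc40a1 (ENSMUSG00000025993, chr1:45908068-45926523, minus strand) encodes ferroportin, the exporter. It was above 0 in 5 of 6 low-label cells, at 1409 in mouse 244, 2871 and 475 in mouse 360, 0 and 871 in mouse 369 and 1.33 in mouse 1184. Ferroportin reads were found in 15 of 22 labelled dormant cells (68.2%, exact Clopper-Pearson 95% interval 45.1% to 86.1%; median 134, highest 1344) and in 11 of 29 proliferating cells (37.9%, 20.7% to 57.7%; median 0, highest 941). The low-label mean of 6.69 ± 4.46 and the labelled mean of 2.90 ± 3.40 overlapped, and the difference of 3.79 (SE 1.89, limma adjusted p = 0.156) was not called. Without mouse 1184, whose single low-label cell was at 1.33 and whose labelled cells averaged 8.81, it was 6.60 (limma adjusted p = 0.0235). In that fit 305 of 11686 genes were called higher. Among cells with at least 4000 genes above 0 it was 7.17 (limma adjusted p = 0.0168), where 354 of 11805 genes were called higher. This leaves out the low-label cells with 2672 and 3314 genes. The cell with 3314 genes is the low-label cell of mouse 1184, so the 2 settings are not separate support. Unlike Trf, Slc40a1 was also read in leukocyte-poor cells, 8 of 12 labelled dormant (highest 1325) and 8 of 20 proliferating (highest 941). The genes most like it were Gnai2 and the lysosomal enzyme genes Lipa (0.69 each) and Hexa (0.68).

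Hmox1 (ENSMUSG00000005413, chr8:75093621-75100589, plus strand) opens the haem ring and frees its iron. Its lowest, median and highest values were 0, 448 and 3108 in low-label cells, 0, 237 and 3088 in labelled dormant cells and 0, 75.3 and 1033 in proliferating cells, and it was above 0 in 5 of 6, 16 of 22 and 22 of 29. Both low-label cells of mouse 360 held the class's top values, 3108 and 3069. The mouse means of 6.95 ± 3.50 and 5.94 ± 2.46 overlapped, and their difference of 1.02 (SE 1.63, limma adjusted p = 0.658) was not called. Its closest genes were Chmp6 (0.61), Gpr137b-ps (0.59) and Capzb (0.58).

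Ireb2 (ENSMUSG00000032293, chr9:54863789-54912530, plus strand) encodes iron regulatory protein 2, which the cell degrades when iron is plentiful, so its mRNA is not a reading of its activity. It was above 0 in 3 of 6 low-label cells (highest 174), 17 of 22 labelled dormant (median 68.3, highest 531) and 20 of 29 proliferating cells (median 53.2, highest 600). The mouse means were 3.44 ± 3.01 and 4.94 ± 1.71, a difference of −1.50 (SE 1.46, limma adjusted p = 0.455), beside a median of −1.48 over all genes. Its nearest genes were Relch and Rab28 (0.69 each) and Slc35a3 (0.66).

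Levels of different genes can be set side by side only per length. Per kilobase of the longest principal transcript, the median of labelled dormant cells was 16116 normalised reads for Fth1 and 28304 for Ftl1. It was 160 for Ncoa4, 151 for Hmox1, 58.8 for Tfrc, 39.7 for Slc40a1, 26.1 for Slc11a2 and 11.8 for Ireb2, with Trf and Slc11a1 at 0. In low-label cells the medians per kilobase were 159772 for Fth1, 110165 for Ftl1, 337 for Ncoa4, 286 for Hmox1, 285 for Slc11a1, 200 for Slc40a1, 60.2 for Trf, 42.6 for Tfrc, 3.89 for Ireb2 and 0.518 for Slc11a2. In both classes every other member was under 1% of either ferritin chain by this measure, and Slc11a1 and Trf stood among the others in low-label cells while at 0 in the median labelled dormant cell.

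The comparison of dormant with proliferating cells, over all cells as sorted, called no gene: 0.0% of 11843 at an adjusted p under 0.05 by limma, with 0 by edgeR as well. At an unadjusted p under 0.05 by limma, 389 genes (3.28%) had more and 737 had less in dormant cells. Of the 10 members 4 were among these (Fth1, Ftl1, Trf and Slc40a1) and none was among the lower ones. Trf was above 0 in 9 of 28 dormant cells, 5 of them low-label, and in 0 of 29 proliferating cells. It entered the test only through dormant cells and could not come out lower in them. The median difference of the members was 0.93, with 7 of 10 positive, against −0.35 over all genes. DESeq2 on the recovered reads called 2.48% of genes higher, among them 1 member, Trf, which is at 0 in every proliferating cell, so its fitted value depends on the tool and bounds nothing.

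Ftl1 averaged 15.72 ± 0.96 in dormant and 14.50 ± 0.71 in proliferating cells (6 mice each), a difference of 1.22 (SE 0.37, limma p = 0.00277, adjusted p = 0.437). Fth1 averaged 15.80 ± 1.13 and 14.82 ± 0.59, a difference of 0.98 (SE 0.39, limma p = 0.02, adjusted p = 0.456). Slc40a1 averaged 6.72 ± 3.25 and 1.71 ± 2.08, a difference of 5.02 (SE 1.42, limma p = 0.00164, adjusted p = 0.437), and Trf 3.77 ± 3.89 and 0, a difference of 3.77 (SE 1.28, limma p = 0.00701, adjusted p = 0.437). Slc11a1 differed by 3.27 (SE 1.65, limma adjusted p = 0.549). In the other 5 members the difference was within 1 standard error of 0: Hmox1 at 0.88, Ncoa4 at 0.73, Slc11a2 at −0.24, Tfrc at −0.47 and Ireb2 at −0.55. When the leukocyte-rich cells were left out, the signs of Fth1, Hmox1, Slc11a2 and Tfrc turned (−0.39, −1.64, 0.90 and 1.93), while Ftl1 was at 0.11 and Slc40a1 at 1.58. The mouse as a replicate block, over the 4 mice with both states, called no gene, and under it Fth1 differed by 0.88, Ftl1 by 0.86, Trf by 2.90 and Slc40a1 by 3.09.

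The 6 low-label cells were all counted as dormant above. Leaving them out left 4 dormant and 6 proliferating mice and again called 0.0% of 11595 genes, and at an unadjusted p under 0.05 limma gave 168 higher and 59 lower genes. Fth1 then differed by 0.15 (SE 0.27, limma p = 0.587), Ftl1 by 0.49 (SE 0.31, limma p = 0.125) and Slc11a1 by 0.03 (SE 1.24, limma p = 0.98), and Trf was above 0 in too few cells to be tested. Among labelled cells, then, the ferritin differences were within 2 standard errors of 0. Slc40a1 differed by 3.39 (SE 1.40, limma p = 0.0257, adjusted p = 1.0) and was the 1 member of 9 tested at an unadjusted p under 0.05, where 1.45% of genes were higher. With the mouse as a replicate block, over the 3 mice with labelled cells of both states, Slc40a1 differed by 0.44 (SE 1.07, limma p = 0.684, adjusted p = 0.999), Ftl1 by 0.037 and Fth1 by −0.32. The rest of the members had differences of 0.91 (Slc11a2), 0.06 (Ncoa4), −0.29 (Tfrc), −0.39 (Hmox1) and −0.57 (Ireb2).

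Within the mice that gave both states, the ferritin differences varied in size and sign, and the part of the low-label cells was not tested. In mouse 360, where both dormant cells were low-label, Fth1 was 3.63 higher and Ftl1 2.93 higher in dormant cells. In mouse 369, where 2 of 6 dormant cells were low-label, Fth1 was 1.08 higher and Ftl1 0.92 higher, and with labelled cells alone 0.21 and 0.53. In mouse 452 the differences were −0.04 and 0.09, and in mouse 1185 they were −1.13 and −0.51, so the proliferating cells of that mouse had the more ferritin mRNA.

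**Figure D3:**
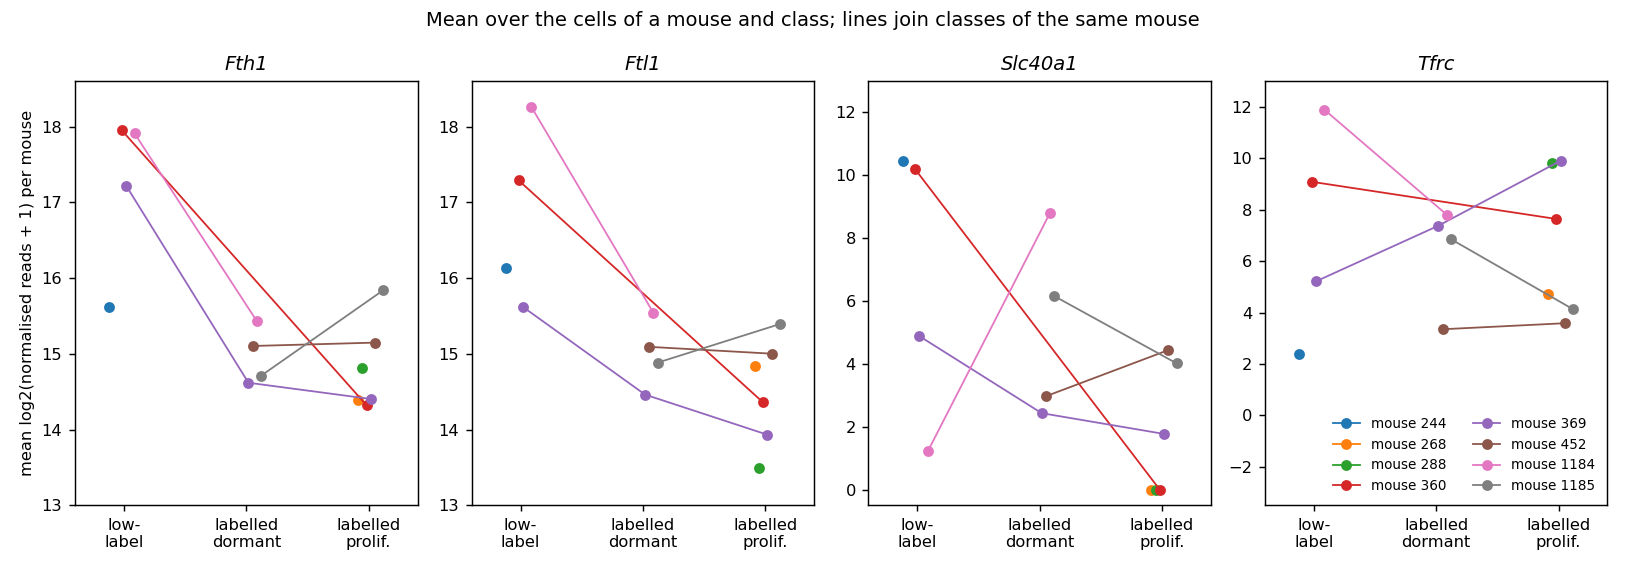
Each point is the mean of log2(normalised reads + 1) over the cells of 1 mouse and class, for Fth1, Ftl1, Slc40a1 and Tfrc, and lines join classes of the same mouse. Each of the 3 mice with low-label and labelled cells falls in Fth1 and Ftl1 from the low-label to the labelled class, while the lines for Slc40a1 and Tfrc cross.

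For Slc40a1 the labelled dormant means were 2.43 in mouse 369, 2.97 in mouse 452, 8.81 in mouse 1184 and 6.16 in mouse 1185. The proliferating means were 0 in mice 268, 288 and 360, 1.77 in mouse 369, 4.44 in mouse 452 and 4.02 in mouse 1185. The 2 dormant mice with the highest means lie above every proliferating mouse, and the other 2 lie inside their range. In mouse 1185, which gave 11 of the 22 labelled dormant cells, 8 of those 11 had Slc40a1 above 0 (median 538, highest 1344), against 2 of its 4 proliferating cells (median 70.5, highest 487). Within mice the labelled difference was 0.66 in mouse 369, −1.47 in mouse 452 and 2.14 in mouse 1185, higher in dormant cells in 2 of 3. Leaving out mouse 1184 as well as the low-label cells gave 2.15 (limma adjusted p = 1.0). Library batches each held 1 state, so in all of these values state cannot be told apart from batch.

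**Figure D4:**
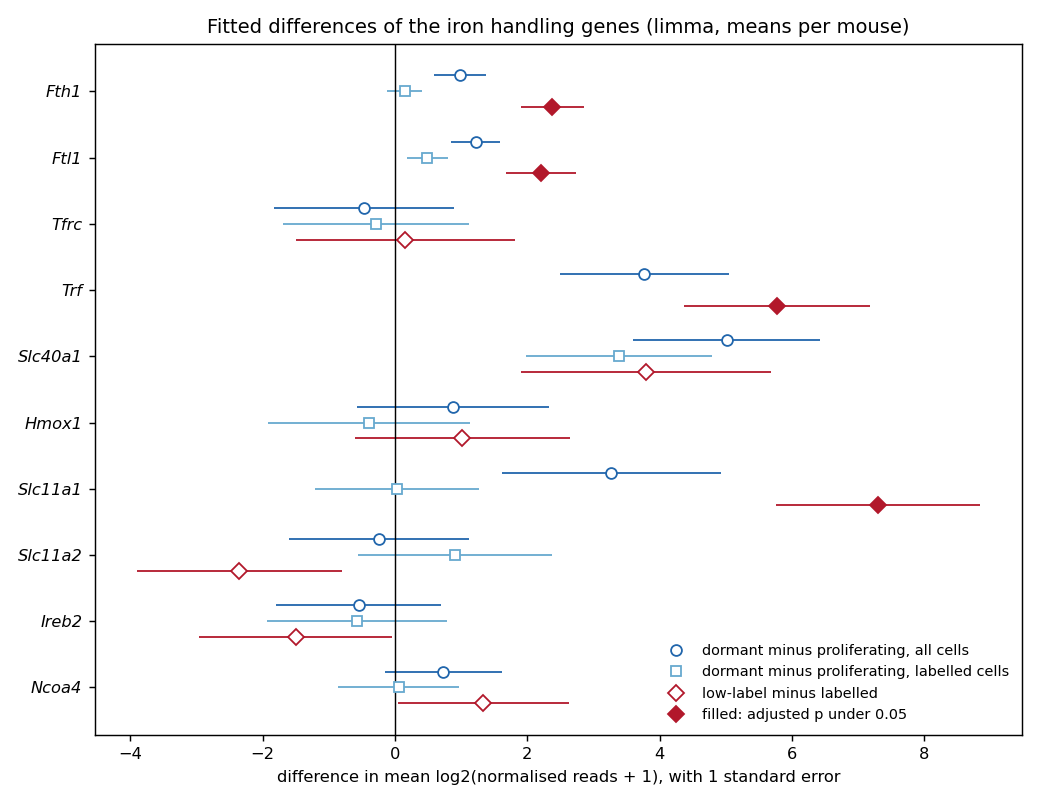
Fitted differences of the 10 members on the log2(normalised reads + 1) scale, with 1 standard error, for dormant minus proliferating over all cells (circles) and over labelled cells (squares) and for low-label minus labelled cells (diamonds, filled at an adjusted p under 0.05). The ferritin differences between the states, 0.98 and 1.22 over all cells, are 0.15 and 0.49 over labelled cells.

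Other genes of iron and haem metabolism were read as 6 lists of 57 genes, of which 50 could be tested. In low-label cells none rose and 4 fell, where 10.4% of all genes were called lower: 1 of 8 uptake and reduction genes, 1 of 5 sensing and chaperone genes, 1 of 8 haem synthesis genes and 1 of 11 NRF2 antioxidant genes. The differences were negative in 39 of the 50. Steap1, which encodes a protein of the family of metalloreductases, averaged 0.84 ± 1.10 in low-label mice and 8.77 ± 1.79 in labelled mice (difference −7.93, SE 1.35, limma adjusted p = 0.000919). Nqo1, a quinone reductase of the NRF2 response, was above 0 in 0 of 6 low-label and 43 of 51 labelled cells (−6.20, SE 1.53, limma adjusted p = 0.013), and its call was lost in 3 of 25 other settings. Cpox, an enzyme of haem synthesis, was above 0 in 0 of 6 and 38 of 51 (−4.52, SE 1.19, limma adjusted p = 0.0181), and its call was lost in 6 of 25 other settings. Aco1, the other iron regulatory protein, was above 0 in 1 of 6 and 35 of 51 (−4.63, SE 1.51, limma adjusted p = 0.0461), a call that was lost in 16 of 25 other settings. The values of Nqo1 and Cpox depend on the pseudocount, since every low-label cell is at 0.

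The lists did not share one level. Medians of the low-label difference were −1.50 for uptake and reduction, −2.22 for sensing and chaperones, −1.80 for mitochondrial iron and iron-sulphur assembly, −2.06 for haem synthesis and −1.14 for the NRF2 response, beside −1.48 for all genes. The median for haem capture, breakdown and export was 1.73, with 5 of 8 genes positive and none called. Its members with the smallest p were Flvcr1, the haem exporter (−3.38, limma adjusted p = 0.0997), and Bach1, a repressor of Hmox1 that haem inactivates (2.79, limma adjusted p = 0.148). Also uncalled were Alas1, the first enzyme of haem synthesis (7.59 ± 2.27 against 3.69 ± 1.93, difference 3.89, limma adjusted p = 0.0706), Steap2 (−4.33, limma adjusted p = 0.056, called in 9 of 25 other settings), Isca1 (−3.97, limma adjusted p = 0.089), the chaperone gene Pcbp1 (−2.55, limma adjusted p = 0.143) and Gclc (−2.85, limma adjusted p = 0.182).

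**Figure D5:**
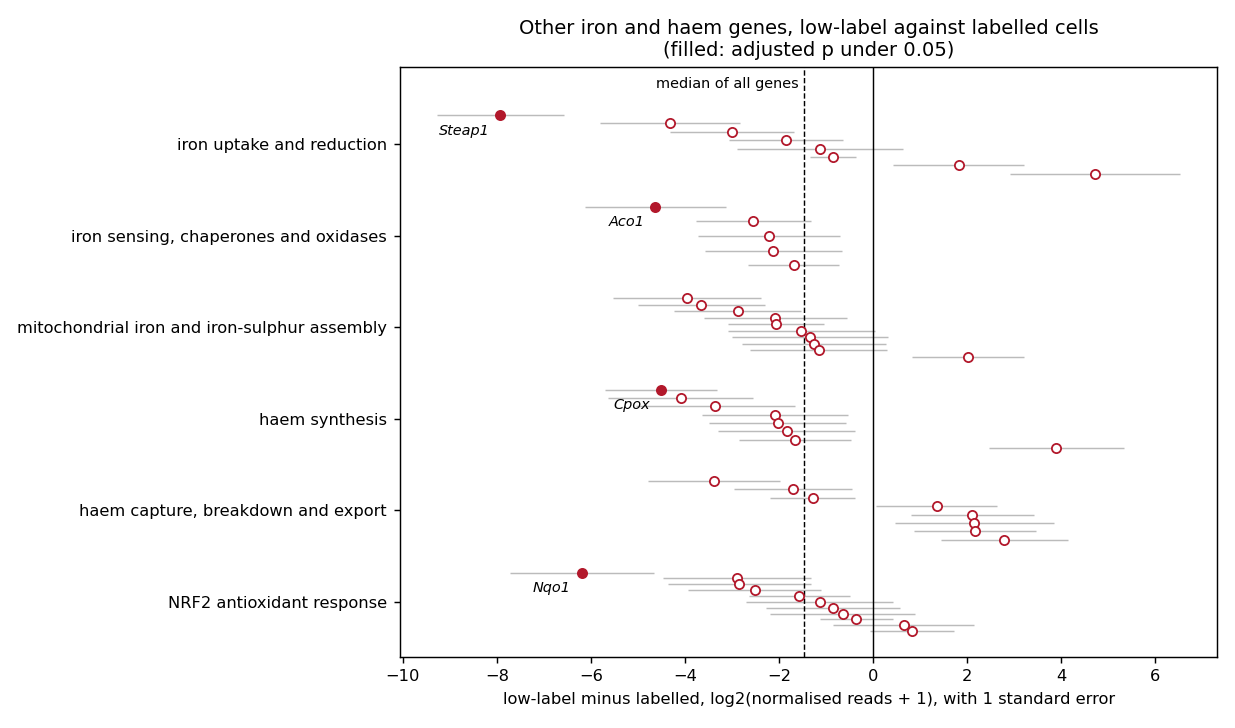
Low-label minus labelled difference of 50 other iron and haem genes by list, on the log2(normalised reads + 1) scale with 1 standard error, filled at an adjusted p under 0.05. The dashed line is the median of all genes, −1.48, and the 4 filled points, Steap1, Aco1, Cpox and Nqo1, all lie below it.

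Between the states none of the 50 was called. At an unadjusted p under 0.05, Alas1 was higher in dormant cells (6.02 ± 2.42 against 2.97 ± 1.67, difference 3.05, limma p = 0.0228, adjusted p = 0.456) and Abcg2, which exports porphyrins, was lower (0.28 ± 0.60 against 2.10 ± 1.96, difference −1.83, limma p = 0.0278, adjusted p = 0.47). Without the low-label cells Alas1 differed by 1.70 and Abcg2 by −2.06, and differences were positive in 33 of 50, beside 23 of 50 with them, while the median over all genes was 0.09 without and −0.35 with these cells. Steap1 (−3.00 over all cells) and Nqo1 (−3.17) were at 0.68 and −0.50 among labelled cells. The others with the smallest p per list were Hfe (2.05), Bach1 (2.45), Iscu (1.44), Prdx1 (0.88), Pcbp1 (−1.36), Aco1 (−1.85), Uros (−1.88) and Isca1 (−2.22), with limma adjusted p between 0.53 and 0.72.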

How the data were processed

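Full-length cDNA of single cells was made with the SMARTer kit and ERCC spike-in RNA and sequenced, per the labels' protocols, and STAR, RSEM, GRCm38 and mm10 are named in the submitters' processing notes. The deposited values are a signal, normalised reads per gene and cell, which the authors scaled with BASiCS per the series text. Within a cell 100% of values above 0 were whole multiples of 1 step (tolerance 0.01 reads), so reads were recovered for the count tools. Of the gene IDs, 12852 had a symbol, and 118 spike-in rows were left out. The highest correlation between cells was 0.891, so no cell looked like a copy of another.

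Each sample is 1 cell, and the mouse was the replicate: means of log2(value + 1), with a pseudocount of 1, over the cells of a mouse and group, for genes above 0 in at least 6 cells. This scale understates changes of low genes. Tests were limma 3.58.1 (trend and robust) and, for the chain ratio, an exact permutation over 96 arrangements. edgeR 4.0.16 and DESeq2 1.42.0 on summed recovered reads were alternatives, beside other pseudocounts, filters, averages, scalings, eCFP thresholds, cells and mice. Means of mice 244 and 288 rest on 1 cell, and so does the low-label mean of mouse 1184. Pairing comes from the mouse in the labels, and the deviations of paired means correlated at 0.359, 0.0856, 0.0137 and −0.00702 in mice 369, 452, 1185 and 360.

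The members, lists and the eCFP threshold of 100 were chosen with earlier results of these data known. All 10 members are named, with the 2 genes of smallest p per list and comparison and the 3 nearest genes by Spearman correlation for members above 0 in at least 10 cells. A gene that this rule names is not reported here. Sites and lengths come from GENCODE M21. Scripts were tested on simulated data and run with R 4.3.3 and Python 3.11.15. Each library batch held 1 state, per the labels' protocols, and single cells were not tied to a batch here.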

Additional observations from a re-analysis of the deposited data

Results flagged for a closer look

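Values below are means of log2(normalised reads + 1) over the cells of a mouse, each standing apart from the means of the other mice in its group by Dixon's test at 95%. Of 49 groups of means tested, 5 stood out. Chance gives about 1 in 20 for independent groups with a normal spread. Some groups here hold several means of 0, and the groupings reuse the same means, so that rate does not hold for them. Slc11a1 in proliferating cells was 6.82 in mouse 360, against 1.62 in the next of 6 mice. All 3 proliferating cells of that mouse had reads of Slc11a1 (69.1, 112 and 179), and the 2 low-label cells of the same mouse had 4132 and 1015. Slc11a1 in labelled dormant cells was 4.81 in mouse 1184, against 0.58 in the next of 4 mice. Trf in labelled cells was 4.60 in mouse 1184, against 0.34 in the next of 7 mice. Both values of mouse 1184 come from 2 of its 4 labelled cells, with 11 and 18 of 18 pan-leukocyte genes above 0. Ncoa4 was 5.23 in mouse 268, the lowest of the 6 proliferating means (next 8.08) and of the 7 labelled means (next 7.94). That mouse gave 2 cells, of which the one with 2397 genes above 0 had no Ncoa4 read and the other had 1411.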

How the results depend on the processing

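The number of genes called between low-label and labelled cells was 1496. It was 302 without leukocyte-rich labelled cells, 974 against labelled dormant and 938 against labelled proliferating cells alone, 946 with median-of-ratios scaling, 2829 from log2 of the mean, 2574 with DESeq2 and 3511 with the mouse as a replicate block. An eCFP threshold of 1000 also put labelled cells of both states in the low group. The number was then 0 by limma, with 199 higher and 1983 lower genes at an unadjusted p under 0.05. Leaving out single mice gave 363 (without mouse 369) to 2247 (without mouse 288), with 769 without mouse 1184 and 820 without mouse 1185. Fth1 kept its direction in all 25 settings and its call in 24, and Ftl1 in 25 and 23. In the same comparison Tfrc turned to −0.20 with a pseudocount of 10, −1.63 from log2 of the mean, −1.55 in cells with at least 4000 genes, −0.28 and −0.92 at eCFP thresholds of 10 and 1000, and ran from −1.29 to 1.74 over mice left out. Hmox1 turned to −0.63 with the replicate block and −0.20 at a threshold of 10, with −0.21 to 2.61 over mice left out. Ireb2 turned to 0.11 in cells with at least 4000 genes and 0.59 at a threshold of 1000, where Ncoa4 turned to −0.039.

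Between the states no gene was called in any limma or edgeR fit, and DESeq2 called 302, or 14 without the low-label cells. The settings that joined leaving out low-label cells with another choice were added after the data were seen. Without leukocyte-rich cells the difference turned to −0.39 for Fth1, 1.93 for Tfrc, −1.64 for Hmox1, 0.90 for Slc11a2, 0.91 for Steap1 and 1.20 for Aco1. Without low-label cells it turned to −0.39 for Hmox1, 0.91 for Slc11a2 and 0.68 for Steap1, and with DESeq2 as well to 0.65 for Slc11a2 and 0.39 for Nqo1. Without low-label cells and with the mouse as a replicate block it was −0.32 for Fth1, −1.005 for Hmox1, −0.23 for Slc11a1, 0.42 for Slc11a2, −0.996 for Ncoa4, 0.071 for Steap1, 1.05 for Aco1 and −0.14 for Prdx1. With the replicate block alone Tfrc was at 0.17 and Ncoa4 at −0.49 (0.17 and −0.50 in the table of the 4 mice with both states), and the chain ratio at 0.026. Tfrc was at 0.043 with a pseudocount of 0.1, and Slc11a2 at 0.14 with means weighted by cells, 0.53 with edgeR and 0.49 with DESeq2. Over mice left out, with and without low-label cells, the ranges were −0.0086 to 1.40 for Fth1, −1.11 to 0.35 for Tfrc, −1.76 to 1.83 for Hmox1, −1.10 to 3.92 for Slc11a1, −1.03 to 1.76 for Slc11a2, −1.30 to 0.65 for Ireb2, −0.51 to 1.32 for Ncoa4, −3.92 to 1.19 for Steap1, −2.83 to 0.57 for Aco1, −2.88 to 0.18 for Isca1 and −4.25 to 1.08 for Nqo1. The cause of these changes was not tested. Ftl1 and Slc40a1 were positive in all 32 settings run between the states, but fell to 0.037 and 0.44 without low-label cells and with the replicate block. With 4 low-label mice, differences well above their standard errors also went without a call. Examples are Steap2 (−4.33, SE 1.49, limma adjusted p = 0.056) and Alas1 (3.89, SE 1.43, limma adjusted p = 0.0706). A gene without a call is therefore not shown to be unchanged.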
